A study of Mus musculus with 4 samples.

Results

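The 10 genes described here encode the Toll-like receptors *Tlr1*, *Tlr2*, *Tlr3*, *Tlr4*, *Tlr6*, *Tlr7*, *Tlr8* and *Tlr9* and the lipopolysaccharide (LPS) co-receptors *Cd14* and *Ly96*, in mouse peritoneal macrophages. They were taken by name, not by their values, from the 15298 genes of the deposited expression data, and all 10 were found. The cells came from female BALB/c mice aged 6 weeks and were sorted as CD11b+ F4/80+ Ly6G-. Mice received microcurrent stimulation (MCS) of 300 µA at 400 Hz for 15 min through pads on the abdomen and back under isoflurane, and controls were handled alike but received no current. Cells were collected at zeitgeber time (ZT, hours after lights on) 2, immediately after MCS, or at ZT14, 12 h later. This gave 4 libraries of bulk RNA-seq, namely control at ZT2, control at ZT14, MCS at ZT2 and MCS at ZT14. Each condition is 1 library, and how many mice each library represents is not stated. No value therefore has a replicate error, and differences between conditions could not be set against the variation between animals.

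Toll-like receptors recognise conserved molecules of microbes and start inflammatory signalling, mostly through the adaptor MyD88. *Tlr1*, *Tlr2*, *Tlr4* and *Tlr6* act at the cell surface, where *Tlr2* pairs with *Tlr1* or *Tlr6* to sense lipopeptides, and *Tlr4* senses LPS together with MD-2, the product of *Ly96*, after *Cd14* has handed over the LPS. *Tlr3*, *Tlr7*, *Tlr8* and *Tlr9* act in endosomes, where *Tlr3* senses double-stranded RNA, *Tlr7* single-stranded RNA and *Tlr9* unmethylated CpG DNA. Macrophages are known for expressing both kinds of receptor, and resident macrophages of the peritoneal cavity are among the first cells to meet microbes there.

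Values are CPM, read counts scaled by the authors to the normalized size of each library. Every value was a whole number of reads times a constant of its library, so the reads behind each value could be recovered, and they totaled 8365590 to 9953243 per library. In these libraries 1 read equaled 0.102 to 0.116 CPM. Log2 ratios were taken after adding 0.1 CPM. Intervals in brackets are 95% counting intervals from the recovered reads (exact conditional binomial, Clopper-Pearson) and cover counting error only. An interval without 0 therefore says that 2 libraries differ, not that the conditions do. Intervals narrow with more reads, so shares of all genes, which include genes near 1 CPM, are not matched for depth to the genes of the set. Transcripts of general macrophage markers were high in all 4 libraries, with summed levels of 24701 to 27143 CPM. Despite the sort, the libraries also held B cell transcripts (summed levels of 1028 to 1461 CPM over the 7 markers listed) and mast cell transcripts (947 to 2231 CPM over 5 markers). In bulk samples, fewer cells of a type and less RNA per cell cannot be told apart.

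All 10 genes were expressed in every library. Divided by transcript length, *Cd14* was the most abundant, with a mean of 158 CPM per kb over the 4 libraries (135 to 180). *Tlr7* followed with 26.4 CPM per kb (21.02 to 31.1), then *Tlr9* with 19.8 (13.6 to 24.9), *Tlr8* with 17.5 (12.4 to 22.8) and *Tlr4* with 16.9 (14.5 to 19.4). *Ly96*, *Tlr2* and *Tlr1* had means of 14.6, 13.7 and 12.3 CPM per kb, with ranges of 10.8 to 17.4, 11.3 to 16.7 and 11.2 to 14.3. The genes from *Tlr9* to *Tlr1* in this order overlapped with their neighbours across libraries, as did *Tlr7* with *Tlr9*. *Cd14* lay above, and *Tlr6* (mean 9.37 CPM per kb, 8.68 to 10.2) and *Tlr3* (3.36, 3.04 to 3.95) lay below, all other genes of the set in every library. The order depends on the transcript chosen, since some of these genes also have short annotated coding transcripts.

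**Figure D1:**
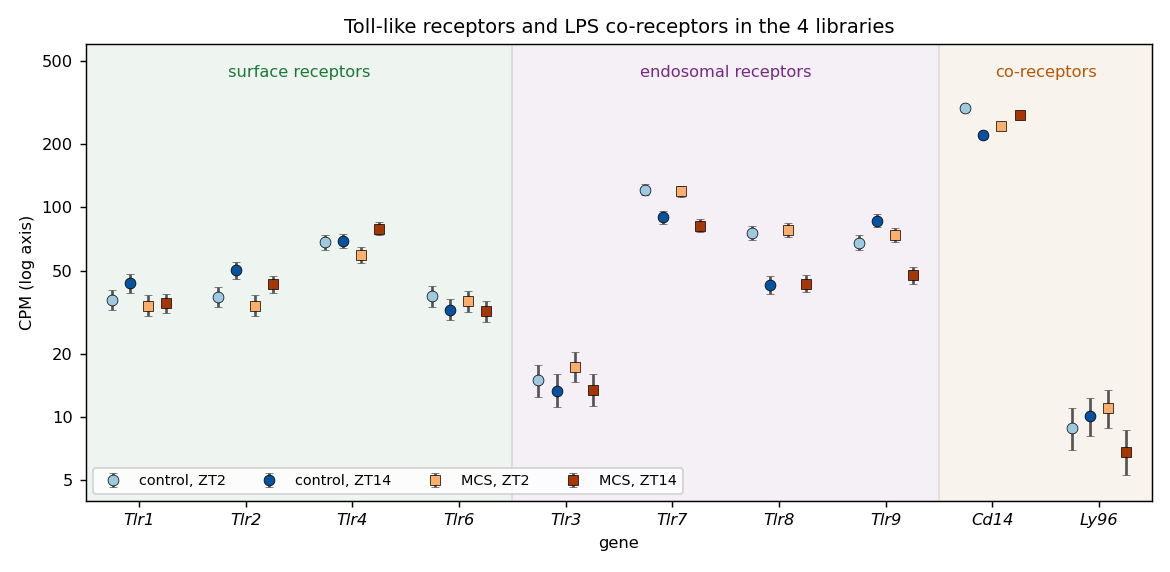
CPM on a log axis of the 10 genes in each of the 4 libraries, with 95% Poisson counting intervals as bars; circles are control and squares are MCS, in light colours at ZT2 and dark colours at ZT14. *Tlr7* and *Tlr8* are higher at ZT2 in both treatments, and *Tlr9* is lowest in MCS at ZT14 (47.4 CPM).

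The largest differences among the receptors were those of *Tlr8* and *Tlr9*, and the regions directly upstream of their first exons are shown as the sequence context of these 2 genes. They are the 250 bases before the start of each gene in RefSeq (GRCm38.p6, the C57BL/6J reference and not the BALB/c strain of the mice), 5′ to 3′ on the strand of the gene. Capitals mark matches to the motifs searched.
Tlr8, chrX:167264330-167264579, minus strand: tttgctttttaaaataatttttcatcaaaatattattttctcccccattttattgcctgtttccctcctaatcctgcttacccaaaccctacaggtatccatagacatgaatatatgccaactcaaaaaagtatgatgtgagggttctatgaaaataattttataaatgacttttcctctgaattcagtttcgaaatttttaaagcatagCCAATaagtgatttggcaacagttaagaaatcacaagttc
Tlr9, chr9:106222348-106222597, plus strand: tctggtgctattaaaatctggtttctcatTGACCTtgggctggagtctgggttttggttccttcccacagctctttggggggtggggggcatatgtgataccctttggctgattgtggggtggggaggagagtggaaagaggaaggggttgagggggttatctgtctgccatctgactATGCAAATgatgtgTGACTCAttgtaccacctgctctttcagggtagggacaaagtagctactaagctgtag

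Of the 10 genes, 6 had a promoter entry, in 8 windows of 250 bases. A total of 6 motifs, chosen after these sequences had been seen, were searched on both strands in all 32536 such windows. The *Tlr9* window held an octamer (ATGCAAAT, found in 1.62% of windows) at position -72 from the gene start, an AP-1 site (TGANTCA, in 6.73%) at -58 and, in reverse at -221, a half-site of the ROR and REV-ERB clock factors (AGGTCA, in 14.0%). The *Tlr8* window held none of these and only a CCAAT box (in 33.8%) at -40. The E-box bound by the clock factors CLOCK and ARNTL (CACGTG, in 6.04%) was found in the windows of *Tlr1* alone, which also held CCAAT boxes and a PU.1 site (GAGGAAGT, in 2.45%). *Tlr2* held the half-site, and *Tlr3* and *Tlr6* held no match. These matches describe letters and say nothing of binding.

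The surface receptors varied by at most 1.48-fold between libraries. *Tlr4*, the LPS receptor (chr4:66827584-66930284), was at 68.3 CPM at ZT2 and 69.3 CPM at ZT14 in control, and at 59.3 and 78.9 CPM in MCS. *Tlr2*, the lipopeptide receptor (chr3:83836272-83841767), was at 37.5, 50.2, 34.0 and 42.9 CPM in this order of libraries, which the lists of 4 values below keep. Both ZT14 levels of *Tlr2* lay above both ZT2 levels. *Tlr1* (chr5:64924679-64933563) was at 36.3, 43.4, 34.0 and 34.9 CPM, with control at ZT14 above the other 3 libraries. *Tlr6* (chr5:64952031-64960097) was at 37.6, 32.5, 35.7 and 31.9 CPM, the narrowest range of the 10 genes at 1.18-fold. *Tlr1* and *Tlr6*, the alternative partners of *Tlr2*, lie 18.467 kb apart with no annotated gene between them. They share 15.3% of the 50-base windows of the *Tlr1* transcript, so some reads could have been divided between these 2 genes.

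Among the endosomal receptors, *Tlr7* and *Tlr8* were higher at ZT2 than at ZT14 in both treatments. *Tlr8* (chrX:167242696-167264329) was at 75.4 CPM at ZT2 and 42.6 CPM at ZT14 in control, and at 78.2 and 43.4 CPM in MCS, from 653, 388, 674 and 424 reads. The 2 ZT2 levels did not overlap the 2 ZT14 levels. *Tlr7* (chrX:167304929-167330558) was at 121, 89.7, 119 and 81.9 CPM and showed the same order of times. These genes are neighbours on the X chromosome, 40.599 kb apart with no annotated gene between them, and no 50-base window of either transcript occurs in another gene. *Tlr9*, the CpG DNA receptor (chr9:106222598-106226883), followed another pattern, with 67.9, 86.5, 73.8 and 47.4 CPM from 588, 787, 636 and 464 reads. Its highest library was control at ZT14 and its lowest was MCS at ZT14. *Tlr3*, the receptor of double-stranded RNA (chr8:45395665-45411080), was the lowest of the receptors, at 15.01, 13.4, 17.4 and 13.5 CPM. An antisense gene, *Gm45542*, overlaps *Tlr3*, and whether the counting used the strand is not stated.

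Of the co-receptors, *Cd14* was at 296 CPM at ZT2 and 222 CPM at ZT14 in control, and at 245 and 276 CPM in MCS, from 2021 to 2703 reads. The 2 controls lay outside the 2 MCS libraries on both sides. *Ly96* (chr1:16688051-16709611) was at 8.89, 10.1, 11.02 and 6.85 CPM, from 77, 92, 95 and 67 reads. With so few reads, ratios of *Ly96* had wide intervals.

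The comparison at ZT2 asks what differed immediately after MCS. No gene of the set passed an absolute log2 ratio of 1, which 2.21% of all 12612 genes with a mean above 1 CPM did, and none passed 0.5, which 10.4% did. *Cd14* was lower in MCS, with a log2 ratio of -0.27 [-0.36, -0.19], as was *Tlr4*, with -0.20 [-0.38, -0.03]. These were 2 of 10 genes with an interval without 0, against 22.5% of all genes. *Ly96* had a log2 ratio of 0.31 [-0.14, 0.76] and *Tlr3* one of 0.21, both with intervals that held 0. The 10 genes had a median log2 ratio of -0.05, against 0.0048 over all genes. The macrophage marker sum had a log2 ratio of -0.04, with 5 of 6 markers lower. That of large peritoneal macrophages had one of -0.17, with 6 of 7 markers lower. The neutrophil markers had a sum of 17.3 CPM in control and 86.2 CPM in MCS, with 7 of 7 higher. The sums of small peritoneal macrophages and dendritic cells (log2 ratio 0.32, 7 of 9 higher), mast cells (0.30, 5 of 5), natural killer cells (0.32, 5 of 5), eosinophils (1.44, 2 of 2) and red blood cells (3.18) were also higher in MCS. The part of these cells in the values of *Cd14* and *Tlr4* was not tested.

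At ZT14, 12 h after MCS, *Tlr9* differed most. It was lower in MCS than in control, with a log2 ratio of -0.86 [-1.03, -0.70], and 5.05% of all genes had an absolute ratio at least this large. Again no gene of the set passed a log2 ratio of 1, which 3.40% of 12368 genes did. *Tlr9* and *Ly96* passed 0.5, which 16.7% of genes did. *Ly96*, with -0.55 [-1.04, -0.09], *Tlr1*, with -0.31 [-0.53, -0.10], and *Tlr2*, with -0.22 [-0.42, -0.03], were also lower in MCS. *Cd14*, with 0.32 [0.23, 0.40], and *Tlr4*, with 0.19 [0.03, 0.34], were higher. In all, 6 of 10 genes had an interval without 0, against 37.6% of all genes. The intervals of the endosomal receptors other than *Tlr9* held 0, with log2 ratios of 0.02 [-0.18, 0.23] for *Tlr8*, -0.13 [-0.27, 0.01] for *Tlr7* and 0.01 for *Tlr3*. The median log2 ratio was -0.08 for the 10 genes and 0.0039 for all genes.

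B cells also express *Tlr9*, and B cell markers moved in the same direction. Their summed level was 1196 CPM at ZT2 and 1461 CPM at ZT14 in control, and 1146 and 1028 CPM in MCS, so the highest and the lowest library were those of *Tlr9*. At ZT14 the sum had a log2 ratio of MCS to control of -0.51, and 7 of 7 markers were lower in MCS, among them *Cd79a* at 369 and 233 CPM. The mast cell sum had a log2 ratio of -0.31, with 5 of 5 markers lower, and the neutrophil sum one of -0.79, with 6 of 7 lower. The library of MCS at ZT14 stood apart in eosinophil markers, at a sum of 48.0 CPM against 1.98 CPM in control, and in red blood cell markers, at 72.4 against 1.10 CPM. The sum of small peritoneal macrophage and dendritic cell markers had one of -0.01. For *Cd14* and *Tlr4*, the macrophage marker sum had one of 0.13, with 5 of 6 markers higher and *Cd68* lower (-0.48). The sum of large peritoneal macrophage markers had one of -0.04, with 5 of 7 markers higher. The part of these cells in the values of the receptors was not tested.

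**Figure D2:**
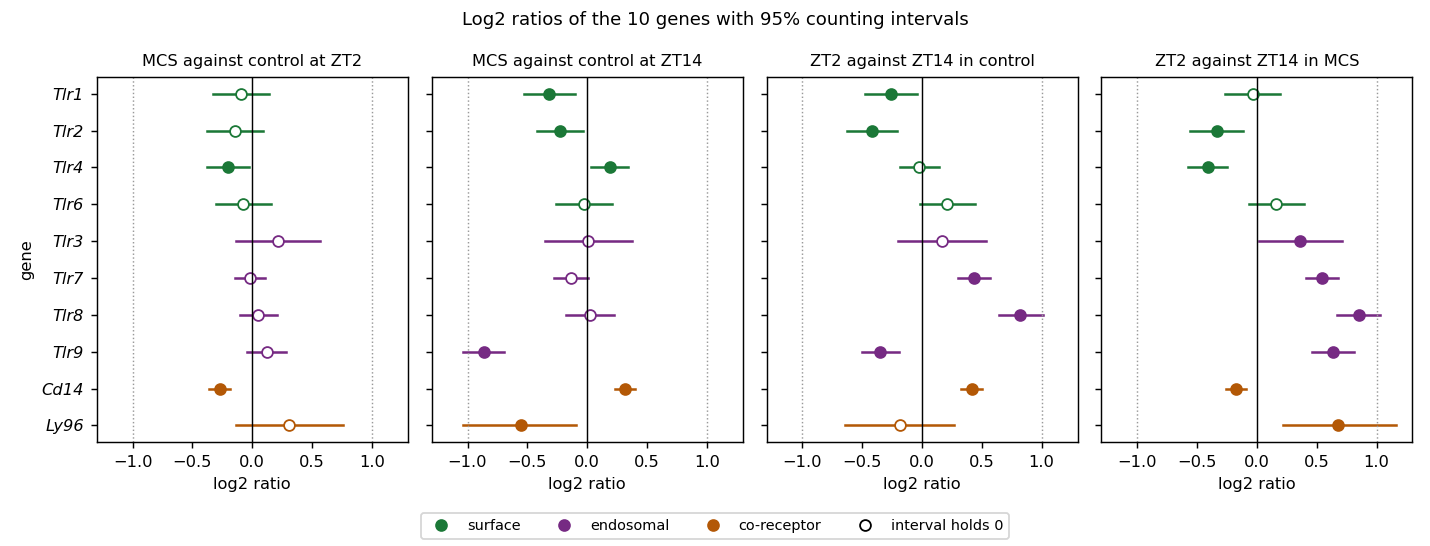
Log2 ratios (x axis, 1 panel per comparison) of the 10 genes with 95% counting intervals as lines; filled points have an interval without 0 and dotted lines mark a log2 ratio of 1 in either direction. *Tlr8* is near 0.8 in both comparisons of ZT2 with ZT14, and *Tlr9* has ratios of -0.86 for MCS at ZT14, -0.35 for time in control and 0.64 for time in MCS.

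The comparison of ZT2 with ZT14 was made in each treatment. Controls were handled like MCS mice, so ZT2 was also immediately after handling under isoflurane and ZT14 was 12 h later. Time of day and time since handling therefore cannot be told apart in these libraries. In control, *Tlr8* was higher at ZT2, with a log2 ratio of 0.82 [0.64, 1.01], which 5.87% of all genes reached or exceeded in size. *Tlr7*, with 0.43 [0.30, 0.57], and *Cd14*, with 0.41 [0.33, 0.50], were higher as well. *Tlr2*, with -0.42 [-0.63, -0.21], *Tlr9*, with -0.35 [-0.50, -0.19], and *Tlr1*, with -0.26 [-0.48, -0.04], were lower at ZT2. These 6 of 10 genes stood against 29.5% of all genes with an interval without 0. None passed a log2 ratio of 1, against 3.61% of 12465 genes, and *Tlr8* alone passed 0.5, against 15.3%. The median absolute log2 ratio was 0.303 for the 10 genes and 0.180 for all genes.

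In MCS, *Tlr8* had nearly the same ratio of ZT2 to ZT14 as in control, 0.85 [0.67, 1.03], and *Tlr7* had 0.54 [0.41, 0.68]. *Tlr9* was higher at ZT2 here, with 0.64 [0.46, 0.81], as were *Ly96*, with 0.68 [0.22, 1.16], and *Tlr3*, with 0.36 [0.02, 0.72]. *Tlr4*, with -0.41 [-0.58, -0.25], *Tlr2*, with -0.34 [-0.56, -0.12], and *Cd14*, with -0.18 [-0.26, -0.09], were lower. Of the 10 genes, 8 had an interval without 0, against 44.0% of all genes. The genes of the set had at least 67 reads in every library, more than genes near 1 CPM, and more reads give narrower intervals. A log2 ratio of 1 was passed by 0 of them, against 5.83% of 12534 genes, and one of 0.5 by *Tlr7*, *Tlr8*, *Tlr9* and *Ly96*, against 23.6%. The median absolute log2 ratio was 0.388, and 0.259 for all genes. At ZT2 the markers of several other cell types were also higher in both treatments. The log2 ratios of their sums, in control and in MCS, were 0.97 and 1.13 for natural killer cells, 0.62 and 1.24 for mast cells and 1.85 and 1.06 for mesothelial cells and fibroblasts, with every listed marker higher. The T cell sum had ratios of 0.41 and 0.47. Other sums had opposite signs in control and in MCS, with -0.26 and 2.84 for neutrophils and -0.29 and 0.16 for B cells. These were -0.01 and 0.32 for small peritoneal macrophages and dendritic cells, and 0.05 and -0.09 for large peritoneal macrophages. Eosinophils had 1.69 and -1.41, and red blood cells 1.14 and -1.60. The macrophage sum had ratios of 0.04 and -0.14, with 2 of 6 markers higher and 4 lower in each treatment. *Lyz2* had the highest level of these markers and weighs most in the sum. Others moved more, as *Mertk*, with 0.95 in control and 0.64 in MCS, and *Adgre1*, with -0.04 and -0.81. The part of these cells in the values of *Tlr7*, *Tlr8* and the other genes of the set was not tested.

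**Figure D3:**
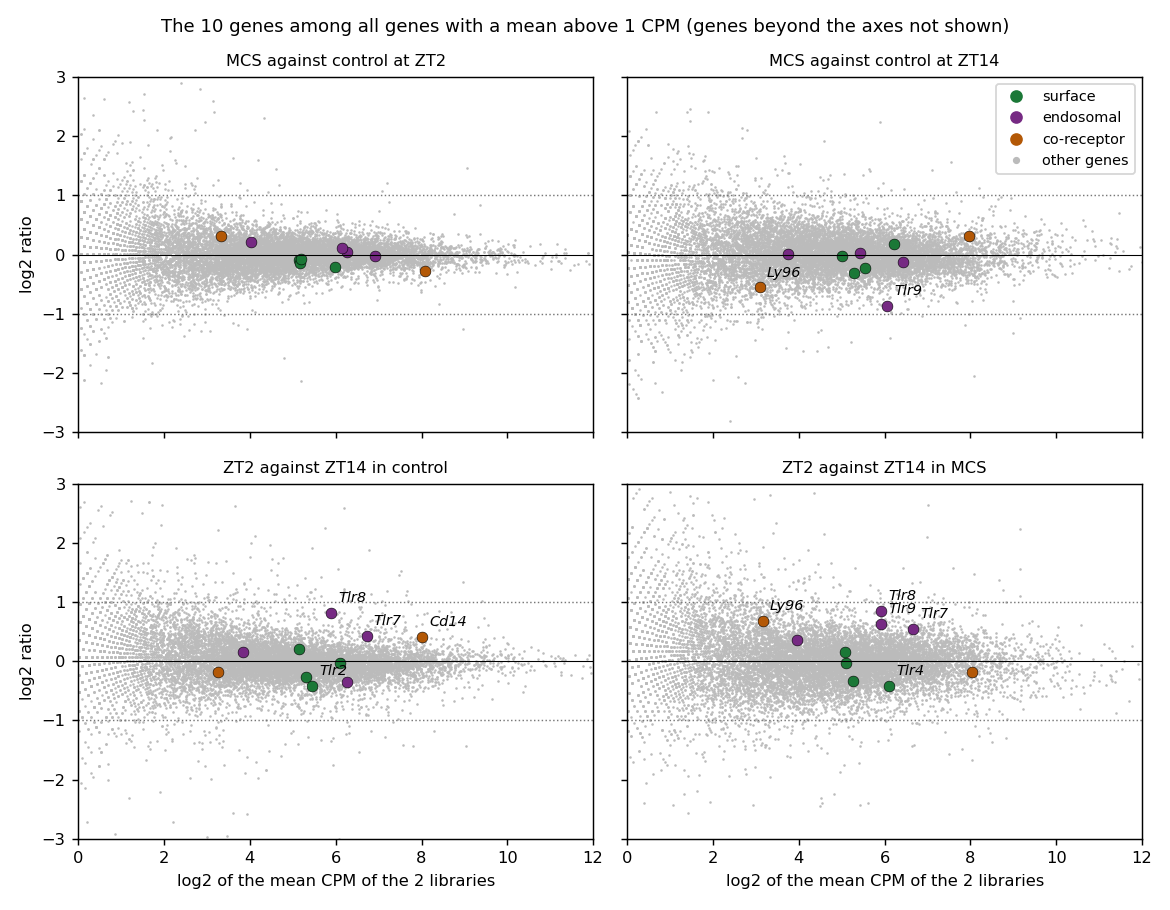
Log2 ratio (y axis) against the log2 of the mean CPM (x axis) of all genes with a mean above 1 CPM (grey) in the 4 comparisons, with the 10 genes coloured by class and named where their absolute log2 ratio is above 0.4. None of the 10 lies beyond the dotted lines at a log2 ratio of 1, and *Tlr8* lies closest to it among the receptors in the 2 time comparisons.

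Whether MCS differed from control in the same way at both times can be put as the ratio at ZT14 minus the ratio at ZT2. This difference was -0.98 [-1.22, -0.75] for *Tlr9*, -0.86 [-1.49, -0.23] for *Ly96*, 0.59 [0.47, 0.71] for *Cd14* and 0.39 [0.16, 0.62] for *Tlr4*, on the log2 scale and from counting error alone. These 4 of 10 genes had an interval without 0, against 36.6% of all genes, and those of the other 6 held 0. *Cd14* and *Tlr4*, which act in the same LPS receptor, were lower in MCS at ZT2 and higher at ZT14, and *Ly96* had the opposite signs, although its interval at ZT2 held 0. A ratio of MCS to control with opposite signs at the 2 times and both intervals without 0 was found for 2 of the 10 genes and for 10.2% of all genes. For the time ratios of both treatments it was 2 of 10 (*Tlr9* and *Cd14*) and 6.69%.

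A test across all genes was possible only with additive terms for time and MCS, which leaves 1 residual degree of freedom. With 1 library per condition, its p-values do not measure the variation between animals. Its time term also cannot separate time of day from time since handling. The test treats the effect of MCS as equal at ZT2 and ZT14, so MCS ratios of opposite sign largely cancel. This held for *Cd14* and *Tlr4*, with log2 fold changes of 0.021 and -0.0056 for MCS. *Tlr9* and *Ly96* also had MCS ratios of opposite sign, although their intervals at ZT2 held 0. Their log2 fold changes of -0.37 and -0.12 merge 0.12 at ZT2 with -0.86 at ZT14 for *Tlr9*, and 0.31 with -0.55 for *Ly96*. The test therefore cannot decide on MCS for *Cd14*, *Tlr4*, *Tlr9* and *Ly96*. When edgeR's quasi-likelihood test was applied to 12404 genes, with Benjamini-Hochberg adjustment, *Tlr8* was higher at ZT2 (log2 fold change 0.84, adjusted p = 0.0029). It was the only one of the 10 genes called for time, against 2.18% of all genes. *Tlr7* (0.49, adjusted p = 0.15, unadjusted p = 0.0056) and *Tlr2* (-0.38, adjusted p = 0.46, unadjusted p = 0.044) did not pass. For MCS edgeR called 0 of the 10 genes, against 0.185% of all genes, and 0 of the 10 had an unadjusted p under 0.05. *Tlr9* had the smallest p of the set (log2 fold change -0.37, unadjusted p = 0.060, adjusted p = 0.9999).

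Surface and endosomal receptors were then compared within each library, which does not depend on how the libraries were scaled. The endosomal receptors took 60.9% of the reads of the 8 receptors at ZT2 (Clopper-Pearson 95% interval 59.3 to 62.4) and 54.3% at ZT14 (52.7 to 55.9) in control. In MCS they took 63.9% at ZT2 (62.4 to 65.4) and 49.7% at ZT14 (48.0 to 51.3). Both ZT2 shares lay above both ZT14 shares. *Tlr7* alone took 26.4% of the receptor reads at ZT2 in either treatment, and 20.99% in control and 21.8% in MCS at ZT14. The log2 ratio of ZT2 to ZT14 of the surface sum minus that of the endosomal sum was -0.39 [-0.52, -0.26] in control and -0.84 [-0.98, -0.71] in MCS. In control the surface sum had a ratio of -0.12 and the endosomal sum one of 0.27, and in MCS these were -0.21 and 0.63. Without *Tlr9* the difference was -0.66 in control and -0.84 in MCS, and with all mouse Toll-like receptors, *Tlr13* among them, it was -0.30 in control and -0.46 in MCS. With *Cd14* and *Ly96* added to the surface sum it was -0.087 in control and -0.80 in MCS. In control, *Cd14* was higher at ZT2 and had more reads than any of the 8 receptors.

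For MCS against control, the surface minus endosomal difference was -0.19 [-0.32, -0.05] at ZT2 and 0.27 [0.14, 0.40] at ZT14. The value at ZT14 came from an endosomal sum that was lower in MCS (-0.32) with a surface sum near that of control (-0.05), and it rested on *Tlr9*. Without *Tlr9* it was 0.020, without *Tlr4* it was 0.12, and as a difference of the median log2 ratios of both classes it was -0.065. Adding the remaining mouse receptors *Tlr5*, *Tlr11*, *Tlr12* and *Tlr13* gave -0.012.

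**Figure D4:**
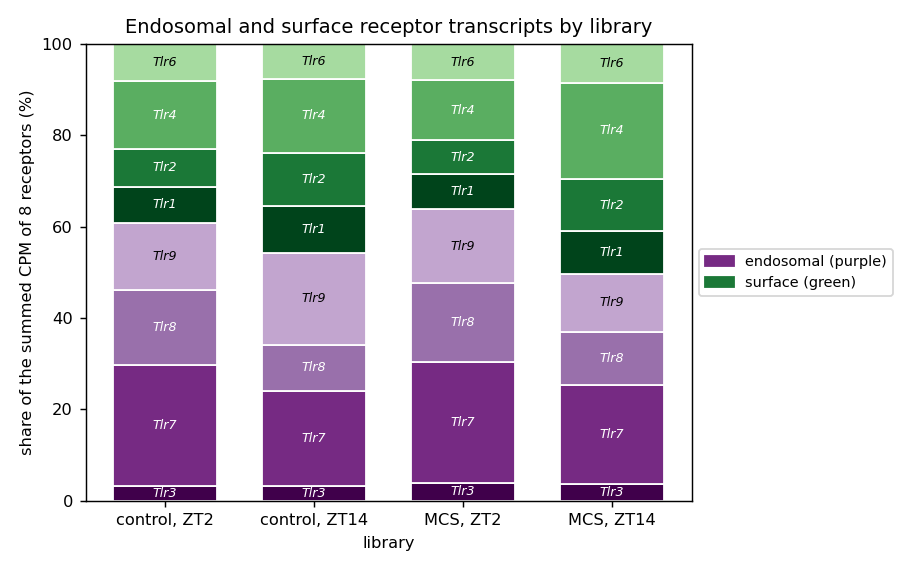
Share (%) of the summed CPM of the 8 receptors taken by each receptor in the 4 libraries, endosomal receptors in purple below and surface receptors in green above. The endosomal share is 60.9% at ZT2 and 54.3% at ZT14 in control and 63.9% and 49.7% in MCS, and *Tlr9* is narrowest in MCS at ZT14.

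Of the other Toll-like receptors and relatives of the mouse, the 3 above 10 CPM varied by 1.11- to 1.38-fold between libraries. *Tlr13*, an endosomal receptor of bacterial ribosomal RNA, was at 290, 270, 293 and 304 CPM, with a log2 ratio of 0.17 for MCS at ZT14. *Cd180*, a relative of *Tlr4* that is abundant in B cells, was at 105, 141, 103 and 110 CPM, and its partner *Ly86* at 89.3, 91.9, 91.2 and 82.5 CPM. *Cd180*, like *Tlr9*, was highest in control at ZT14. *Tlr11* was at 3.23, 3.19, 5.80 and 2.76 CPM, with a log2 ratio of ZT2 to ZT14 in MCS of 1.04 [0.37, 1.80]. *Tlr5* lay between 0.220 and 1.51 CPM, and *Tlr12* between 0 reads in MCS at ZT14, which by a floor of 3 reads allows up to 0.307 CPM, and 0.580 CPM, so little can be said of either.

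Downstream of the receptors, the genes that carry the signal were also covered. Of the 6 adaptors and of the 16 kinases and ubiquitin ligases, 0 passed a log2 ratio of 1 in the 4 comparisons, in which 2.21% to 5.83% of all genes did, so lists of this size would hold few such genes in any case. The adaptor *Myd88* was at 34.9, 34.4, 28.9 and 38.7 CPM, with a log2 ratio of ZT2 to ZT14 in MCS of -0.42 [-0.66, -0.19]. *Ticam2*, the bridging adaptor of *Tlr4*, was at 48.7, 67.3, 59.6 and 74.2 CPM, with ZT14 above ZT2 in both treatments. *Pik3ap1*, which links the receptors to PI3 kinase, had the same order of times, at 58.2, 73.0, 57.7 and 77.0 CPM. Of the kinases and ligases, *Irak2* was at 44.9, 51.4, 45.8 and 39.5 CPM, *Irak4* at 63.4, 69.3, 60.8 and 79.8 CPM, and *Traf3* at 60.3, 85.0, 62.3 and 74.2 CPM. *Traf3* was higher at ZT14 in both treatments, and the interval of *Irak4* in control held 0. Of 11 genes for trafficking and processing of endosomal receptors, 1 passed a log2 ratio of 1, and only in control, where 3.61% of all genes did. This was *Ctsl*, a protease that cleaves these receptors, at 276, 135, 253 and 225 CPM, with a log2 ratio of ZT2 to ZT14 of 1.024 [0.92, 1.13] in control and 0.16 [0.08, 0.25] in MCS. *Slc15a4*, a lysosomal transporter needed for signalling of *Tlr7* and *Tlr9*, was at 55.7, 69.5, 52.0 and 76.8 CPM, and the vesicle regulator *Rab11a* at 82.9, 74.9, 70.3 and 92.1 CPM.

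Of the 10 transcription factors of the pathway, 0 passed a log2 ratio of 1, against the same 2.21% to 5.83% of all genes. *Irf8* was at 74.5, 141, 85.3 and 106 CPM and *Jun* at 33.5, 56.8, 39.7 and 45.7 CPM, both highest in control at ZT14. *Irf7*, which acts below *Tlr7* and *Tlr9*, was at 45.5, 26.8, 42.5 and 31.6 CPM, higher at ZT2 in both treatments. For MCS at ZT14, 0 of the 10 factors were higher and 7 were lower by the counting interval, which 37.6% of all genes passed in either direction. Of 12 negative regulators, 0 passed a log2 ratio of 1, against the same shares. For MCS at ZT14, 3 of them were higher and 6 lower by the counting interval, against 37.6% of all genes in either direction. The widest range was that of *Dusp1*, a phosphatase of stress kinases, at 139, 123, 124 and 224 CPM, with a log2 ratio for MCS at ZT14 of 0.87 [0.77, 0.98]. *Nfkbia*, the inhibitor of NF-kB, was likewise highest in MCS at ZT14, at 165, 144, 158 and 202 CPM, and *Tnfaip3* was lowest there, at 29.1, 30.0, 33.2 and 23.0 CPM. Of 6 partners in ligand transfer and uptake, again 0 passed against these shares. *Lbp*, which carries LPS to *Cd14*, was at 16.1, 11.3, 17.4 and 22.5 CPM, with a log2 ratio for MCS at ZT14 of 0.99 [0.65, 1.34]. *Cd36* was at 410, 314, 374 and 386 CPM, and the fungal glucan receptor *Clec7a* at 36.7, 56.0, 53.0 and 39.4 CPM.

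The early response genes of LPS were low. Of 15 genes listed, 12 were in the data. In control, 10 of these had a mean above 1 CPM, and 5 of them passed a log2 ratio of 1 as lower at ZT2 and 1 as higher, against 3.61% of all genes in either direction. In MCS, 9 had a mean above 1 CPM, and 0 passed as lower at ZT2 and 2 as higher, against 5.83%. Values near 1 CPM rest on few reads. *Cxcl1*, a neutrophil chemokine, was at 1.15, 8.13, 3.48 and 3.68 CPM and *Tnf* at 2.54, 6.48, 1.97 and 2.66 CPM, both highest in control at ZT14. The chemokines *Cxcl2*, at 3.81, 10.9, 3.94 and 7.57 CPM, and *Ccl3*, at 0.462, 1.76, 1.28 and 0.920 CPM, had their maximum in the same library, as did *Ier3*, at 13.2, 22.7, 12.6 and 18.5 CPM, and *Cd40*, at 14.6, 23.3, 13.3 and 17.4 CPM. *Ccl5*, which is also abundant in natural killer cells, was at 18.02, 6.37, 25.2 and 9.41 CPM, higher at ZT2 in both treatments. For MCS at ZT14, where 3.40% of all genes passed, *Tnf*, with a log2 ratio of -1.25 [-2.01, -0.60], and *Cxcl1*, with -1.12 [-1.76, -0.55], were lower. At ZT2, where 2.21% passed, *Il1b* was higher in MCS, at 7.08 against 1.73 CPM (log2 ratio 1.97 [1.20, 2.95]), as was *Cxcl1* (1.51 [0.52, 2.79]). In that library the neutrophil markers were high, and their part was not tested.

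**Figure D5:**
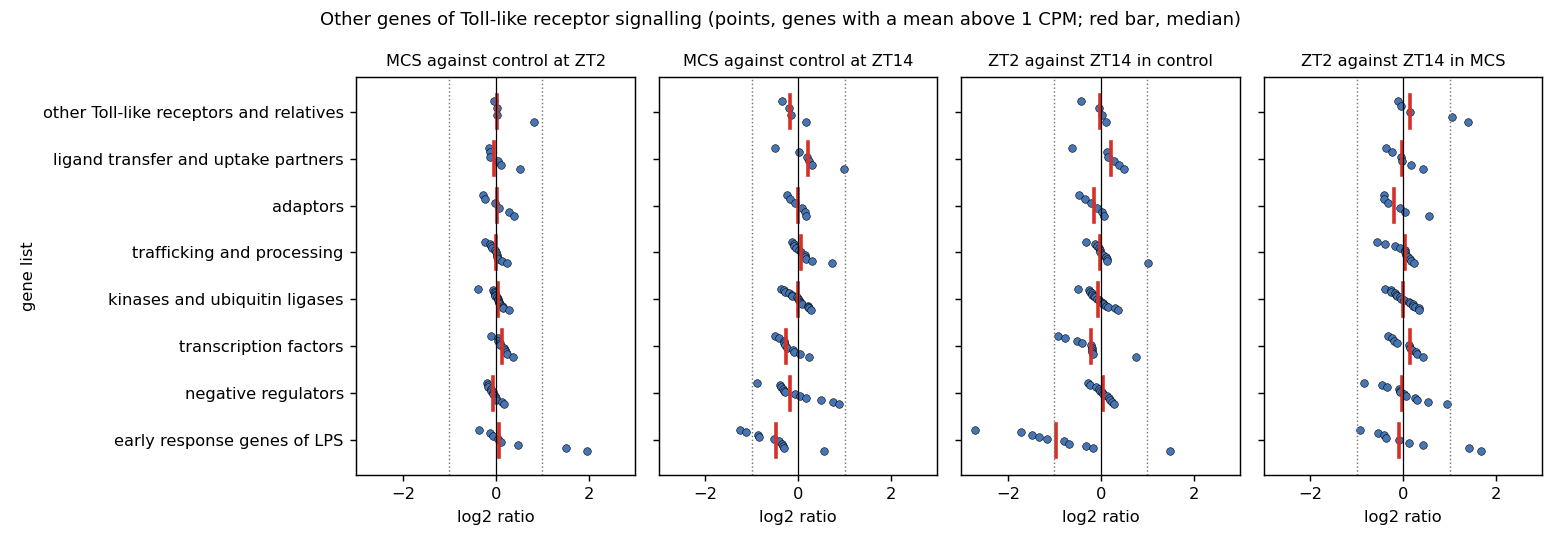
Log2 ratios (x axis, 1 panel per comparison) of the other listed genes of Toll-like receptor signalling with a mean above 1 CPM, 1 row per list; points are genes, red bars medians, and dotted lines mark a log2 ratio of 1. The early response genes spread most, with a median for ZT2 against ZT14 of -0.96 in control and -0.08 in MCS. The adaptors and kinases stay between the dotted lines.

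The genes with the profile nearest to that of the most variable member of each class were found among 8631 genes of at least 10 CPM, by the Euclidean distance of mean-centred log2 values over the 4 libraries. Nearest to *Tlr8* were *Dpy19l3*, at 34.6, 21.2, 36.1 and 20.96 CPM (distance 0.097), *Stxbp3* (0.14) and *Picalm* (0.14). Nearest to *Tlr2* were *Gga2* (0.057), *Camkk2* (0.058) and *Slc11a1* (0.061), the last a metal transporter of phagosomes. Nearest to *Ly96* were *Zbtb38* (0.050), *Foxn3* (0.053) and *Gpr18* (0.059). These names only describe the shape of each profile over 4 libraries.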

How the data were processed

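Total RNA of sorted peritoneal macrophages was depleted of ribosomal RNA and sequenced from a directional library kit, with 1 library per condition. Per the labels and the study's methods, the authors trimmed reads with Trimmomatic 0.38, counted them with RSEM 1.3.0 and Bowtie2 on mm10, and deposited CPM normalized by edgeR. The annotation version is not stated. The deposited scaling equaled that of TMM factors computed here. All values (100%) were whole reads within 0.05 read, and these reads gave the counting intervals. Intervals of the surface minus endosomal difference came from the conditional odds ratio, and those of the ZT14 minus ZT2 difference of MCS ratios from a normal approximation on log counts. RSEM estimates need not be whole, so any rounding by the authors is included.

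A gene was counted as past the threshold at an absolute log2 ratio above 1, after adding 0.1 CPM, with a log2 mean of the 2 libraries above 0. edgeR was run on the recovered reads wherever a gene had 40 or more over the 4 libraries. Positions and lengths came from GENCODE on GRCm38. All 10 genes were named, together with listed pathway genes past a log2 ratio of 1, *Tlr5*, *Tlr11*, *Tlr12*, *Tlr13*, *Cd180* and *Ly86*, and the 3 widest ranging genes of at least 10 CPM in each list. The genes and lists were chosen with earlier results of these data known. Alternatives were pseudocounts, scalings, minimum levels, thresholds, class definitions and the count test. Intervals were tested on simulated data with counting error alone, the error they assume, so that test says nothing of variation between animals. Software was Python 3.11.15, numpy 2.4.6, pandas 2.3.3, scipy 1.17.1, matplotlib 3.10.9, R 4.3.3 and edgeR 4.0.16.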

Additional observations from a re-analysis of the deposited data

Results flagged for a closer look

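In 3 of the 10 genes a contrast had opposite signs in 2 settings, with both counting intervals without 0. For MCS against control it was 2 of 10, against 10.2% of all genes, and for time it was 2 of 10, against 6.69%. Each condition is 1 library, so the difference was not tested between conditions. *Tlr4* had log2 ratios of MCS to control of -0.20 at ZT2 and 0.19 at ZT14. *Cd14* had -0.27 at ZT2 and 0.32 at ZT14. *Tlr9* had log2 ratios of ZT2 to ZT14 of -0.35 in control and 0.64 in MCS, and *Cd14* had 0.41 in control and -0.18 in MCS. The 2 statements on *Cd14* rest on the same 4 values and are not independent.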

How the results depend on the processing

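Pseudocounts of 1 and 0.01 CPM, rescaling by TMM factors or to a median ratio of 1, and totals without *Rn45s* left all 200 recomputed log2 ratios of single genes within their counting intervals. The sign changed in 1 of them, *Tlr1* for time in MCS, from -0.037 to 0.0024 without *Rn45s*, where the interval holds 0. These scalings moved the median of all genes by at most 0.039 on the log2 scale. The count of genes past the threshold was 0 in each comparison. With a threshold of 0.5 it was 0 for MCS at ZT2, 2 for MCS at ZT14, 1 for time in control and 4 for time in MCS, against 10.4%, 16.7%, 15.3% and 23.6% of all genes. With edgeR's count test it was 1 for time, a value shared by both time comparisons. The surface minus endosomal difference for MCS at ZT14 reversed from 0.27 to -0.065 as a difference of medians and to -0.012 with all mouse Toll-like receptors, and moved to 0.46 with *Cd14* and *Ly96* added. Leaving out *Tlr9* gave 0.020 and leaving out *Tlr4* gave 0.12, both chosen after seeing the data. For time in control it moved from -0.39 to -0.087 with *Cd14* and *Ly96* and to -0.66 without *Tlr9*. For time in MCS it moved from -0.84 to -0.46 with all Toll-like receptors. Depth limits *Ly96*, at 67 to 95 reads, most.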
